A study of Mus musculus with 4 samples.

Results

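The retinoic acid receptors and the genes that make, carry and degrade retinoic acid were followed in mouse embryonic fibroblasts (MEF cells) that were wild-type (wt) or null for topoisomerase 2β (Top2β). The set is a list of gene names. It holds 9 genes (Rara, Rarb, Rarg, Aldh1a1, Aldh1a2, Aldh1a3, Crabp1, Crabp2 and Cyp26b1) of the 54842 genes in the deposited table. All 9 were found by matching Ensembl identifiers to gene symbols.

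Total RNA was depleted of ribosomal RNA and sequenced from 2 libraries of untreated wt MEF cells and 2 libraries of untreated Top2β-null MEF cells, grown in the same serum-containing medium. The Top2β-null cells came from Top2β-null mice. The labels list no retinoid among the additions to this medium. The methods name different sources for the wt and the Top2β-null cells, so that loss of Top2β and origin of the cells cannot be told apart. Nothing says that the 2 libraries of a genotype came from separate cultures, and p-values then measure only the spread between these libraries.

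Retinoic acid is the active form of vitamin A. Retinol enters cells, is oxidised to retinal by retinol and alcohol dehydrogenases, and retinal is oxidised irreversibly to retinoic acid by the ALDH1A enzymes. CRABP proteins bind retinoic acid in the cytoplasm and CYP26 enzymes degrade it. RARα, RARβ and RARγ, each paired with an RXR, bind response elements in DNA and switch between repression without ligand and activation with it. The pathway patterns the embryonic trunk, limb and hindbrain, and fibroblasts of the embryo are among its responding cells.

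Of the 7 genes that could be tested, Crabp1 alone changed by a large factor. It was almost silent in wt but well expressed in Top2β-null MEF cells. The receptors Rara and Rarg were abundant in both genotypes and differed by little, while Rarb, Crabp2 and Cyp26b1 did not pass the test. The 3 synthesis genes were at low counts or at 0 in all 4 libraries.

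The sequences shown here are the stretches upstream of 3 genes to which these results refer, read from RefSeq promoters on GRCm38.p6 and written 5′ to 3′ in the direction of transcription. Rarb and Cyp26a1 are shown because they hold the DR5 element, the direct repeat of 2 half-sites with 5 bases between them to which RAR and RXR bind. The capitals mark this element. Crabp1 is shown because it is the member with the largest log2 fold change, and the capitals mark its CG dinucleotides.

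Rarb, chr14:16575477-16575576, reverse strand: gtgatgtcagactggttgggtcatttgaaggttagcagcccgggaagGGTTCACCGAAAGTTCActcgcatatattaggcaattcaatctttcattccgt
Cyp26a1, chr19:37697708-37697807, forward strand: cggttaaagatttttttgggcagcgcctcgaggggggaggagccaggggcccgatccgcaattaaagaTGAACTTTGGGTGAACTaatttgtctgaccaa
Crabp1, chr9:54764498-54764747, forward strand: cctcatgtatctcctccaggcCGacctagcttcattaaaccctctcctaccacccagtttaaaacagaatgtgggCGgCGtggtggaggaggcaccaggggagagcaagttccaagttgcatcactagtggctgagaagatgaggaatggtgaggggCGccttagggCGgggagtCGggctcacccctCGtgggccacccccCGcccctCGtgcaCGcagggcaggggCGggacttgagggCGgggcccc

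Both strands of each promoter, from 250 bases before to 50 bases after the start, were searched for DR5 elements, taking as a half-site AGGTCA with G also allowed for the leading A and T for the G before TCA, and any 5 bases between the half-sites. In Rarb the element reads along the direction of transcription, with the half-sites GGTTCA and AGTTCA, and lies 53 to 37 bases upstream of the start. In Cyp26a1 it lies on the opposite strand, 32 to 16 bases upstream, and both half-sites read AGTTCA on that strand. A promoter was given for 7 of the 9 genes and for 41 of 54 other retinoid genes, and apart from Rarb and Cyp26a1 none held a match. Of all 32851 promoters in the RefSeq table, 32 (0.0974%) held the element. A match in letters is a description and does not show binding. The printed Rarb start lies within the gene, which extends farther upstream in GENCODE. The 250 bases upstream of Crabp1 held 63.6% G and C and 12 CG dinucleotides, against medians of 52.4% and 6 over all promoters. Of all promoters, 33.5% held at least 12. Among the members, Rarb held 16 and Aldh1a2, at 0 counts in all 4 libraries, held 40.

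The libraries held 133116830 to 149647278 counts. Normalized counts are counts scaled by TMM factors from edgeR to one common library size. Top2b, the targeted gene, stood at 18259 and 18465 in wt and at 3879 and 3789 after loss of Top2β. Of 10 fibroblast markers, 9 lay above 100 normalized counts in every library, and the exception was Lum, at 3.96 or below. Summed over the list, the fibroblast markers had 883736 and 898987 normalized counts in wt against 555221 and 560372 in Top2β-null MEF cells. Col1a1 and Vim carried most of the lower sum, whereas Dcn (log2 fold change 4.99), Thy1 (2.07), Pdgfrb (1.88) and Pdgfra (1.16) were called higher. The 5 neural markers summed to 5604 and 5514 in wt and to 8100.0 and 8462 in Top2β-null MEF cells. Within this list Tubb3 added most to the difference (2022 and 2007 against 4322 and 4598), while Map2 was lower (3514 and 3442 against 3048 and 3088). Sox2 was at 0 in wt but at 677 and 730 in the Top2β-null libraries, while Sox10 was lower in the latter (39.4 and 37.7 against 12.4 and 9.90). The 4 mesothelial markers summed to 16095 and 16525 in wt against 1835 and 1896 in Top2β-null MEF cells, nearly all of it Msln, whereas Wt1 had 0 counts in both wt libraries but 58 and 48 after loss of Top2β. The 5 leukocyte markers summed to 2387 and 2463 in wt against 1295 and 1299 in Top2β-null MEF cells, with Cd68 lower, Csf1r and Itgam higher and Tyrobp at 0 in all 4 libraries. The sums of the endothelial, epithelial, muscle and pluripotency lists were 258 or below in each library. The part of these differences in the results was not tested. In bulk RNA, fewer cells of a type and less RNA per cell cannot be told apart.

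To ask how loss of Top2β bears on the retinoid genes, each was compared between genotypes in one fit over all genes and repeat families. A gene was called when its adjusted p was below 0.05, its log2 fold change beyond 1 in either direction and its mean normalized count above 100. Of the 9 genes, 7 reached 10 counts in 2 or more libraries and were tested. Called higher was 1 of these 7, Crabp1, against 5.52% of all 25085 genes tested. No member was called lower, against 5.25% of all genes tested (edgeR), and DESeq2 also called 0 lower. An unadjusted p below 0.05 was found for 4 of the 7 members and for 17287 of the 25085 genes. By adjusted p alone 2 were higher (Crabp1 and Rara) and 2 lower (Rarg and Aldh1a3), where 32.8% of all genes were higher and 33.7% lower. With so many genes past the adjusted p, the members past the adjusted p alone are no more frequent than the background. The median log2 fold change was -0.12 over the 7 members and -0.0058 over all genes tested. Aldh1a1 and Aldh1a2 were too low to be tested.

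**Figure D1:**
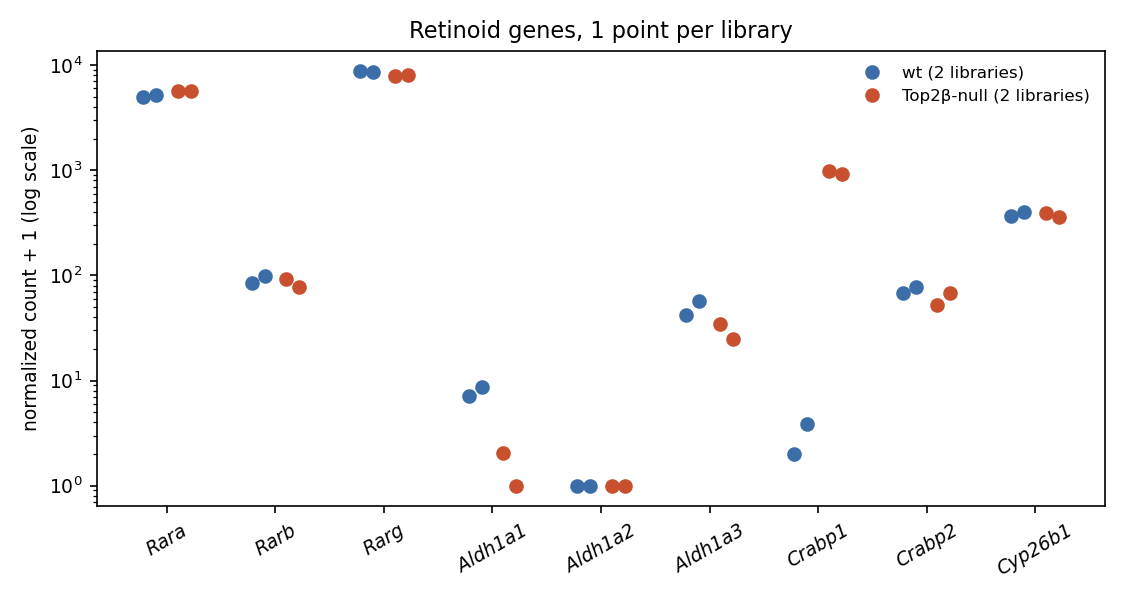
Normalized counts plus 1, on a log axis, of the 9 retinoid genes with 1 point for each of the 2 wt and 2 Top2β-null libraries. Crabp1 stands near the bottom of the axis in wt but at 985 and 922 normalized counts in Top2β-null MEF cells, whereas the points of Rara, Rarg and Cyp26b1 lie close together.

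Rara and Rarg encode the receptors RARα and RARγ. Rara (chromosome 11, from 98927818 to 98974942 on GRCm38, forward strand) had 4960 and 5149 normalized counts in wt against 5616 and 5694 in Top2β-null MEF cells. Both Top2β-null libraries lay above both wt libraries, by a log2 fold change of 0.16 (standard error 0.0304, edgeR quasi-likelihood test, adjusted p = 2.0e-04). Rarg (chromosome 15, from 102234938 to 102257517, reverse strand) had 8706 and 8664 normalized counts in wt against 7888 and 8011 in Top2β-null MEF cells. It was lower in both Top2β-null libraries, with a log2 fold change of -0.13 (standard error 0.0254, edgeR, adjusted p = 3.6e-04). With scaling to the total count this became -0.058 (edgeR, adjusted p = 0.0689). Neither receptor came near the fold cut-off.

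The log2 ratio of Rarg to Rara counts is free of any scaling between libraries. Its values were 0.81 and 0.75 in wt, but 0.49 in each Top2β-null library. The ratio thus differed by -0.29 between genotypes against a pooled standard deviation of 0.0306 (exact permutation test, two-sided, p = 0.33, below which 2 libraries against 2 cannot go).

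Rarb, which encodes RARβ, is a classical target of retinoic acid through the DR5 element shown in its promoter. It had 82.8 and 98.5 normalized counts in wt against 91.1 and 76.3 in Top2β-null MEF cells, so that the groups overlapped. Its log2 fold change was -0.12 with a 95% interval from -0.53 to 0.30 (edgeR, adjusted p = 0.616).

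Rarb is the neighbour of Top2b. On chromosome 14 Top2b extends from 16365179 to 16435462 on the forward strand and Rarb from 16430839 to 16819156 on the reverse strand, so that their 3′ ends overlap over 4624 bases. Of the 5265 exonic bases of Rarb, 1793 are also exonic in Top2b, on the other strand. The kit keeps the strand, but the strand setting of the counting is not given in the sources used here, and reads in this overlap may belong to either gene. The mean of Top2b in Top2β-null MEF cells was 0.209 times that in wt. The Rarb counts were 82 and 102 in wt against 88 and 77 in Top2β-null MEF cells, and how far they come from the overlap was not tested.

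Of the other genes around Rarb, Oxsm, Ngly1 and Thrb were farther from 0 than Rarb, and Nr1d2 was nearer to it. Oxsm, a mitochondrial fatty acid synthase, was called higher, with 203 and 202 normalized counts in wt against 883 and 862 in Top2β-null MEF cells (log2 fold change 2.11, standard error 0.0774, edgeR, adjusted p = 6.4e-13). Ngly1, an enzyme that removes glycans from proteins, moved by a log2 fold change of 0.73 (standard error 0.0492, edgeR, adjusted p = 1.5e-09). Thrb, the thyroid hormone receptor β gene beyond Rarb, went from 156 and 130 normalized counts to 6.21 and 9.90, with a log2 fold change of -4.12 (standard error 0.291, edgeR, adjusted p = 2.9e-09), but its mean lay under the cut-off of 100. Nr1d2, a nuclear receptor gene still farther away, moved by a log2 fold change of -0.082 (standard error 0.0263, edgeR, adjusted p = 0.0123). Thus Oxsm and Ngly1 were higher, while Thrb on the other side of Rarb and Top2b on the same side as Oxsm (log2 fold change -2.26) were lower. The Rarb groups overlapped.

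**Figure D2:**
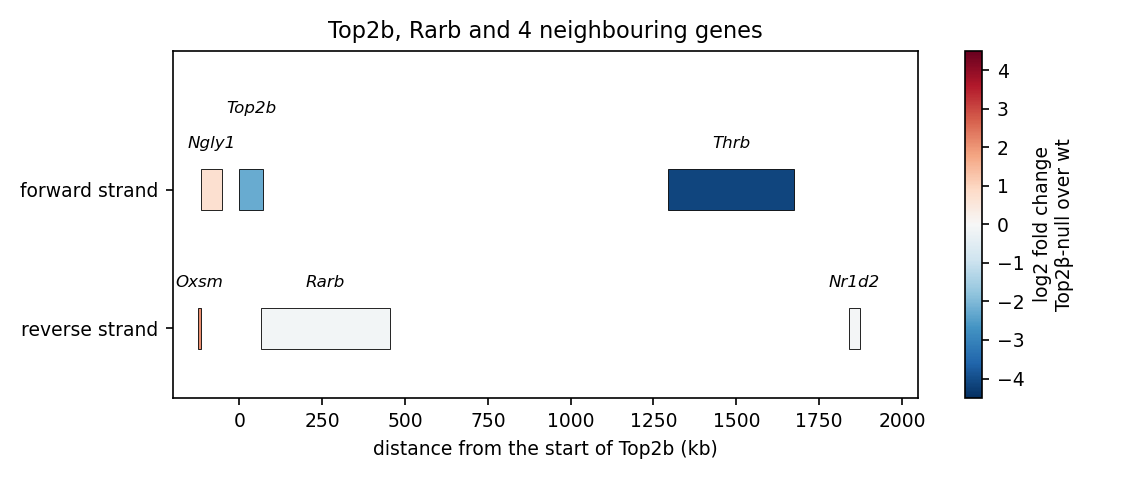
Top2b, Rarb and 4 neighbours on chromosome 14, drawn by strand against the distance in kb from the start of Top2b and coloured by log2 fold change (Top2β-null over wt). Oxsm (2.11) is coloured higher, Top2b (-2.26) and Thrb (-4.12) lower, and Rarb (-0.12), whose 3′ end overlaps that of Top2b, stays near 0.

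Crabp1 (chromosome 9, from 54764748 to 54773110, forward strand) encodes a cytoplasmic protein that binds retinoic acid and is widely used as a marker of responding embryonic mesenchyme and neural crest. It had counts of 1 and 3 in wt against 951 and 931 after loss of Top2β, or 1.01, 2.90, 985 and 922 normalized counts. The groups are far apart and the libraries of each genotype lie close to each other. The ratio of Top2β-null to wt was 483, with a 95% interval from 188 to 1773 from the exact binomial distribution of the counts, which covers counting error only. The fitted log2 fold change was 8.83 (standard error 0.192, edgeR, adjusted p = 8.7e-16). Its 95% interval, from 8.42 to 9.24, is narrower than the counting interval, so the edgeR standard error overstates the precision at these wt counts. DESeq2 gave 8.92 with a standard error of 0.731. Crabp1 passed the filter on low counts through the Top2β-null libraries alone, and without either of them it was not tested. The log2 fold change was 8.29 without wt replicate 1 and 9.70 without wt replicate 2. Beside it, the neural markers went both ways in the Top2β-null libraries, with Tubb3 and Sox2 higher and Map2 and Sox10, which marks neural crest, lower, by the values given above, and their part in this result was not tested.

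Crabp2 (chromosome 3, from 87948666 to 87953376, forward strand) encodes the related protein that hands retinoic acid to its receptor. It had 67.6 and 77.3 normalized counts in wt against 50.7 and 67.3 in Top2β-null MEF cells. The log2 fold change was -0.29 with a 95% interval from -0.77 to 0.19 (edgeR, adjusted p = 0.27). The groups lay apart by less than 1 normalized count at their nearest libraries.

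The 2 binding proteins thus exchanged order through Crabp1, as Crabp2 did not pass the test. Their ratio and shares restate the change of Crabp1, with its 1 and 3 counts in wt, and are no further result. The log2 ratio of Crabp2 to Crabp1 counts was 6.07 and 4.74 in wt, but -4.28 and -3.78 after loss of Top2β. It differed by -9.43 between genotypes against a pooled standard deviation of 0.711 (exact permutation test, two-sided, p = 0.33, again the lowest possible). Per kb of exon, Crabp1 made up 2.40% and 5.82% of the Crabp1 and Crabp2 sum in wt against 97.0% and 95.8% in Top2β-null MEF cells. Among the receptors the shares moved little. Rara made up 36.0% of the receptor sum in wt against 40.8% in Top2β-null MEF cells, Rarg 63.4% and 58.7%, and Rarb 0.535% and 0.501%, as means of 2 libraries.

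**Figure D3:**
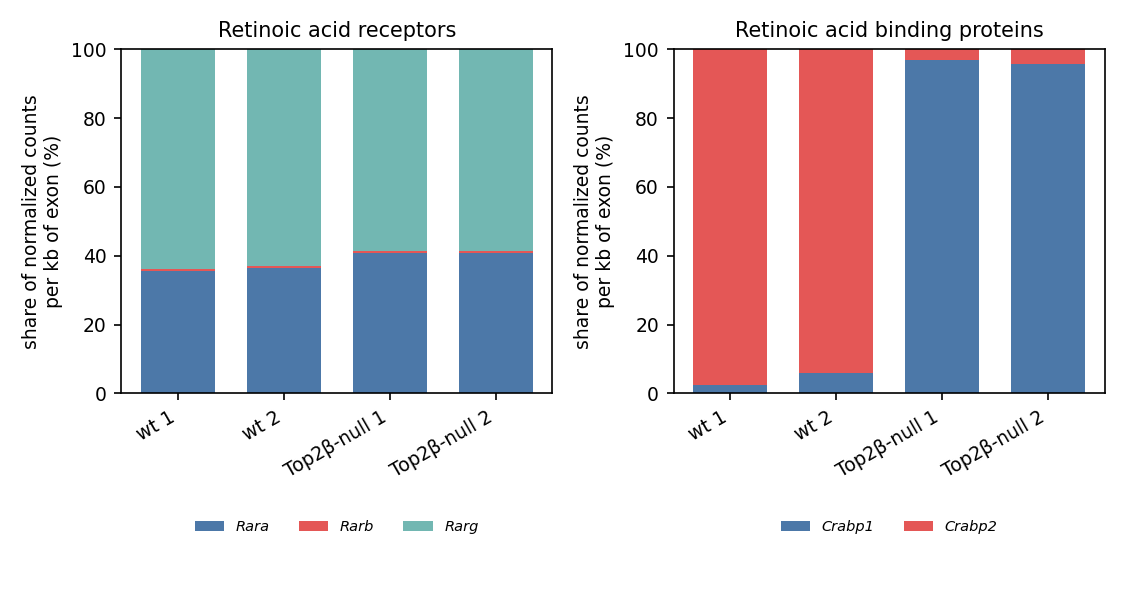
Share, in percent of the normalized counts per kb of exon, of each receptor (left) and each retinoic acid binding protein (right) in the 4 libraries. The receptor shares differ by a few percent between genotypes, whereas Crabp1 takes 97.0% and 95.8% of the right-hand bars in the Top2β-null libraries against 2.40% and 5.82% in wt.

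The change at Crabp1 was compared with its surroundings, over the 3 nearest tested protein-coding genes on each side (chosen by this rule after the value of Crabp1 was seen). Of these 6 genes, Hykk, a hydroxylysine kinase, was called higher (log2 fold change 1.66, standard error 0.116, edgeR, adjusted p = 2.5e-09) and Acsbg1, an acyl-CoA synthetase, lower (-1.46, standard error 0.0938, edgeR, adjusted p = 8.8e-10). Dnaja4, a co-chaperone gene, had 0.94 and Ireb2, an iron-responsive RNA-binding protein gene, 0.29. Wdr61, the gene nearest by its start, had 0.046 (edgeR, adjusted p = 0.241), with 4249 and 4113 normalized counts in wt against 4279 and 4353 in Top2β-null MEF cells. AY074887 had -0.030. None of the 6 was as far from 0 as Crabp1.

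Genes with the pattern most like that of Crabp1 were taken as those with a mean above 100 whose centred log2 normalized counts over the 4 libraries lay at the smallest Euclidean distance. These were Oasl2 (0 and 0.966 normalized counts in wt, then 453 and 429 in the Top2β-null libraries, distance 0.116), 2610318N02Rik (3.03 and 5.80, then 1868 and 1788, distance 0.149) and Gm47061 (0 and 0.966, then 489 and 551, distance 0.224). Over 4 libraries in 2 groups, this likeness describes the size of the step and no more.

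The ALDH1A enzymes make retinoic acid. Aldh1a3 (chromosome 7, from 66390890 to 66427517, reverse strand) had 41.4 and 56.0 normalized counts in wt against 33.1 and 23.8 in Top2β-null MEF cells. The log2 fold change was -0.78 (standard error 0.299, edgeR, adjusted p = 0.0320), with a 95% interval from -1.42 to -0.14. This call by adjusted p was lost with DESeq2 (adjusted p = 0.136) and without wt replicate 2 or Top2β-null replicate 2 (edgeR, adjusted p = 0.216 and 0.201).

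Aldh1a1 (chromosome 19, from 20492715 to 20643465, forward strand) had 6 and 8 counts in wt against 1 and 0 in Top2β-null MEF cells. These counts are too low for the test, and the ratio of wt to Top2β-null was 13.6 with a counting interval from 2.08 to 577. Of its 50-base stretches, 3.06% also occur in 1 other gene, so that some reads cannot be placed with certainty. Aldh1a2 (chromosome 9, from 71215789 to 71296243, forward strand), the main synthesis enzyme of the early embryo, had 0 counts in all 4 libraries. A count of 0 allows up to 3 counts, or 2.90 to 3.11 normalized counts, in each library, by counting error only. At this depth no Aldh1a2 RNA was detectable in either genotype.

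Cyp26b1 (chromosome 6, from 84571414 to 84593908, reverse strand) encodes the enzyme that clears retinoic acid in limb and skin mesenchyme. It had 363 and 396 normalized counts in wt against 390 and 357 in Top2β-null MEF cells, and the groups overlapped. The log2 fold change was -0.025 with a 95% interval from -0.22 to 0.16 (edgeR, adjusted p = 0.821). No change of the size asked for a call lies within this interval.

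Per kb of exon, the order of the members in wt was Rarg (2038 normalized counts per kb, from 2043 and 2033 in the 2 libraries), Rara (1158 ± 30.7, SD, n = 2), Cyp26b1 (70.9 ± 4.32), Crabp2 (54.8 ± 5.16), Rarb (17.2 ± 2.12), Aldh1a3 (10.5 ± 2.24), Crabp1 (2.44 ± 1.66), Aldh1a1 (1.40 ± 0.239) and Aldh1a2 at 0. Of the neighbours in this order, Crabp1 and Aldh1a1 did not differ beyond their spread. In Top2β-null MEF cells Crabp1 (1189 ± 55.4 normalized counts per kb, SD, n = 2) came next after Rarg (1866 ± 20.4) and Rara (1296 ± 12.6), and the others kept their order, from Cyp26b1 (69.8 ± 4.48) through Crabp2 (44.7 ± 8.88), Rarb (15.9 ± 2.00) and Aldh1a3 (6.16 ± 1.44) to Aldh1a1 (0.105 ± 0.148) and Aldh1a2. The Top2β-null libraries had 1228 and 1150 for Crabp1 and 1287 and 1304 for Rara.

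The rest of the pathway was read from 54 genes listed by role, of which 38 were tested. Of these 38, 3 were called higher and 3 lower, where 5.52% and 5.25% of all genes tested were called. By adjusted p alone, 19 lay higher and 14 lower, where the shares over all genes tested were 32.8% and 33.7%. Their median log2 fold change was 0.19, against -0.0058 for all genes tested. Nr2f1 and Nr2f2 were among those called higher, and the 3 called lower were Adh7, Tgm2 and Hoxd4.

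Genes for the transport, binding and storage of retinoids were mostly low or at 0. Fabp5, a fatty acid binding protein that also binds retinoic acid, was abundant in wt (9407 and 9000.3) and higher in Top2β-null MEF cells (12972 and 14048, log2 fold change 0.55). Stra6, the cell surface receptor that takes up retinol, had 3 and 0 counts in wt against 23 and 36 in Top2β-null MEF cells. Rbp2 and Rbp4 had 13 counts or fewer in every library, with log2 fold changes of 2.18 and 2.81. By adjusted p, 5 of the 5 genes tested in this list were higher and 0 lower, where 32.8% and 33.7% of all genes were. Stra6, Rbp2 and Rbp4 passed the filter on low counts through the Top2β-null libraries alone, so that their direction adds no support. A further 7 genes of this list were too low to be tested.

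Retinol and retinal are interconverted by the dehydrogenases. Of 16 genes 12 were tested, with 5 higher and 6 lower by adjusted p and 1 called lower. Over all genes tested, 32.8% were higher and 33.7% lower by adjusted p, and 5.25% were called lower. Adh7, an alcohol dehydrogenase of epithelia that oxidises retinol, fell from 3045 and 3137 normalized counts to 1471 and 1432 (log2 fold change -1.09, standard error 0.0443, edgeR, adjusted p = 2.3e-12). Dhrs4, a retinal reductase, had 609 and 596 in wt against 1128 and 1169.7 in Top2β-null MEF cells (log2 fold change 0.93). Rdh10, the main retinol dehydrogenase of the embryo, had a log2 fold change of 0.13. Dhrs3, a retinal reductase that retinoic acid induces, had 47 and 43 counts in wt against 17 and 10 in Top2β-null MEF cells (log2 fold change -1.69, standard error 0.352, edgeR, adjusted p = 5.3e-04). Other genes of this list at low counts went both ways. Rdh12 had 2 and 2 counts in wt against 37 and 45 (log2 fold change 4.31) and passed the filter through the Top2β-null libraries alone. Adh1 had 29 and 22 counts in wt against 4 and 3 (log2 fold change -2.79).

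The partners of the receptors differed little. Rxra had a log2 fold change of 0.25 and Rxrb one of -0.18, and Rxrg was at 3 counts or fewer in each library. Of 6 corepressors and coactivators, 3 were higher and 2 lower by adjusted p, and all 6 stayed within the fold cut-off. The shares over all genes tested were 32.8% and 33.7% by adjusted p. Ncoa2, a coactivator, had 4030.2 and 4479 normalized counts in wt against 7900.1 and 8036 in Top2β-null MEF cells (log2 fold change 0.90), and the corepressor Ncor1 had a log2 fold change of 0.47. Among the clearance genes, Cyp26a1, which holds the other DR5 element, had 1 and 2 counts in wt against 14 and 8 in Top2β-null MEF cells and was not tested. Cyp26c1 had a log2 fold change of 1.02 at 56 counts or fewer per library. Aldh8a1, which oxidises retinal of another isomer, had one of -0.92 at 41 counts or fewer.

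Genes known as targets of retinoic acid moved both ways. Of 17 genes 13 were tested, with 2 called higher and 2 called lower. Over all genes tested, 5.52% were called higher and 5.25% lower. The median log2 fold change of the 13 was -0.066, which is the same with Hoxd4 at its bound. Nr2f1 and Nr2f2 encode the orphan receptors COUP-TFI and COUP-TFII. Nr2f1 had 1062 and 1037 normalized counts in wt against 7596 and 8009.6 in Top2β-null MEF cells (log2 fold change 2.89, standard error 0.0398, edgeR, adjusted p = 3.1e-18). Nr2f2 had 7238 and 7094 in wt against 29991 and 31170.6 in Top2β-null MEF cells (log2 fold change 2.09, standard error 0.0279, edgeR, adjusted p = 2.3e-18). Tgm2, the tissue transglutaminase, went the other way, from 6143 and 6351 to 606 and 579 (log2 fold change -3.40, standard error 0.0452, edgeR, adjusted p = 2.2e-18). Hoxd4, a patterning factor, had 233 and 220.2 normalized counts in wt and 0 counts in both Top2β-null libraries, which is at least 74.6-fold lower against a floor of 3 counts per library. Rarb, Cyp26b1 and the 3 targets Meis1, Rarres1 and Rarres2 did not pass the test, whereas Hoxb4 had a log2 fold change of -0.57, Meis2 of 0.42 and Bhlhe40 of 0.44.

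**Figure D4:**
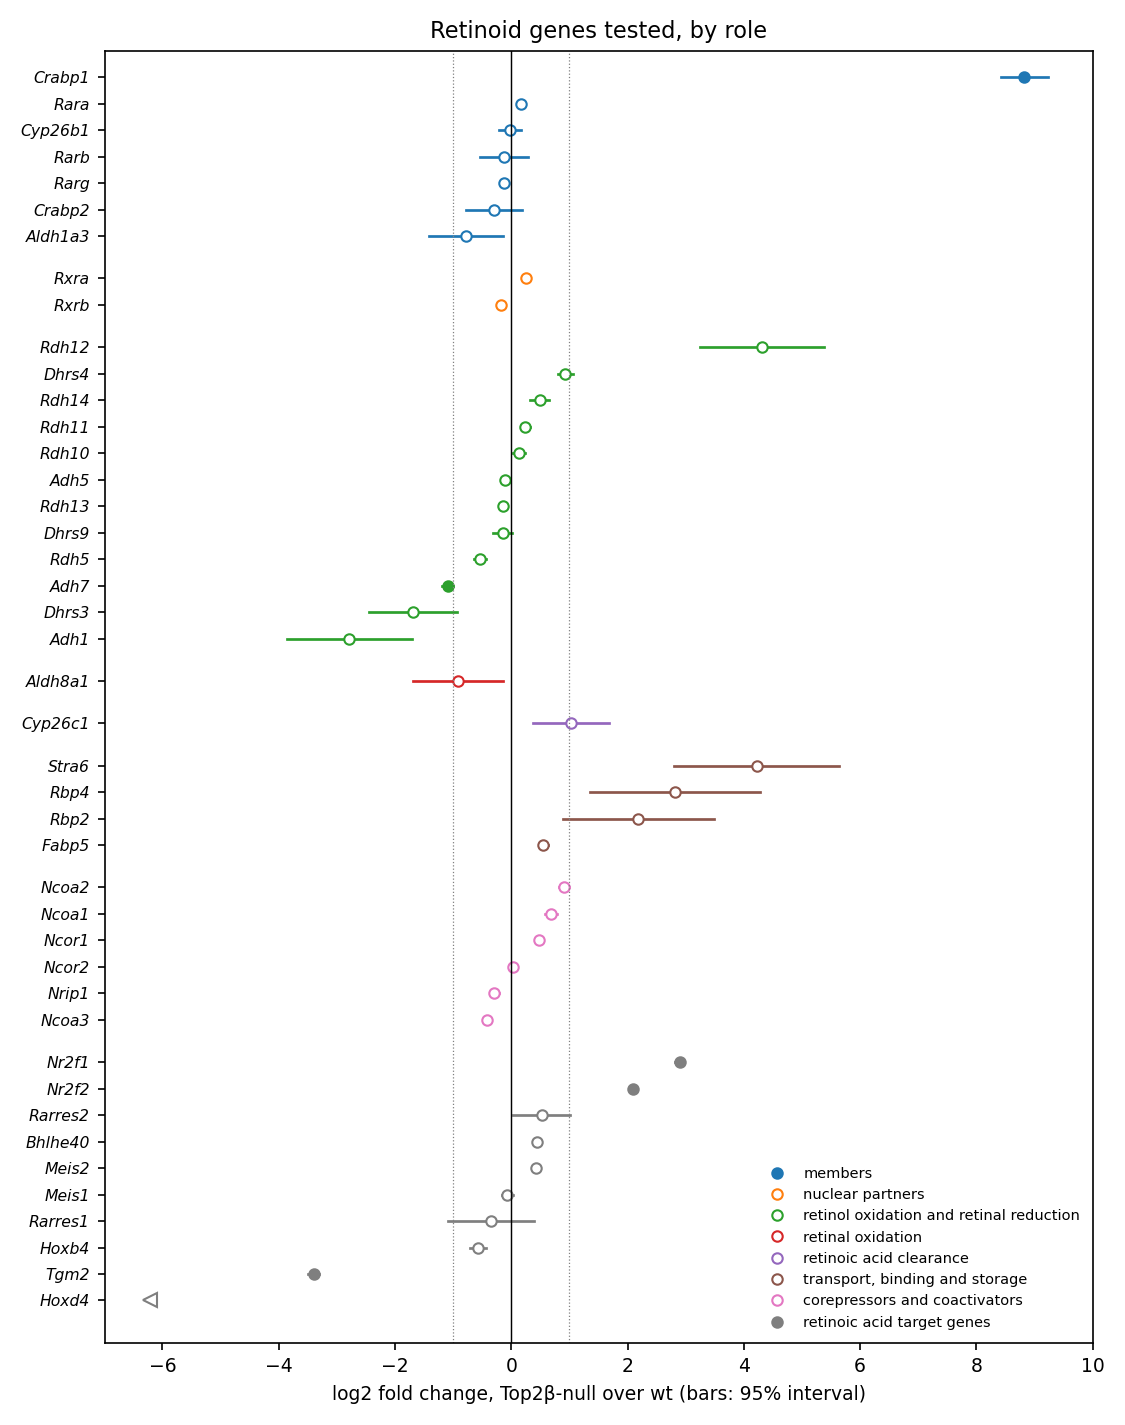
Log2 fold change (Top2β-null over wt) of the 7 members tested and of other retinoid genes, grouped by role, with 95% intervals as bars, filled points for called genes and dotted lines at a log2 fold change of 1 in either direction. Hoxd4, at 0 counts in Top2β-null MEF cells, is drawn as a triangle at its bound. Crabp1 (8.83) lies farthest to the right, with a bar narrower than its counting error, while the receptors and their partners lie close to 0.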

How the data were processed

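The authors deposited raw counts of genes and repeat families for each of the 4 libraries, made by trimming paired-end reads with Trim Galore!, aligning them to mm10 with STAR and assigning them to Gencode genes and RepeatMasker repeats by TEtranscripts. The aligner was set to keep reads with many alignments. Gene symbols, positions and exon lengths come from GENCODE M21 (GRCm38), which matched 54409 of 54842 identifiers, while the authors counted on an earlier release. All 4 columns were assigned from their library names.

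The tests used edgeR 4.0.16 and DESeq2 1.42.0 under R 4.3.3, and their code was first tested on simulated data. A feature was tested if 2 or more libraries reached 10 counts, which left 25085 genes and 1481 repeat families. The quasi-likelihood test of edgeR used TMM factors over both kinds and no term but genotype. Benjamini-Hochberg adjustment ran over the 26566 features. Standard errors were derived from the log2 fold change and the F statistic, and 95% intervals use the fit's degrees of freedom. The 2 libraries of a genotype differed beyond sampling noise, with a chi-square of 3.65 (wt) and 5.07 (Top2β-null) for each degree of freedom, so they were not treated as copies of 1 library, though this does not show separate cultures. The cut-offs for a call are those of the study's methods, applied there to DESeq2.

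The members and the gene lists were chosen with earlier results of these data known. The genes named are the 9 members, called genes and examples of the lists, the neighbours of Rarb and Top2b, and the 3 genes nearest in pattern to Crabp1. Examples that were not called, and the genes around Crabp1, were chosen after their values were seen. Alternatives were DESeq2, scaling to the total count, TMM factors computed without the repeats, other filters, the replicate number as a block, adjusted p alone, and leaving out each library in turn. Some genes of the lists are counted but not reported here by name.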

Additional observations from a re-analysis of the deposited data

How the results depend on the processing

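Crabp1 stayed higher in every fit that tested it, at 8.83 to 8.92 on the log2 scale in the 5 other fits of all libraries and at 8.29 to 9.70 when 1 wt library was left out. It drops out, and 0 members are called higher, when 100 counts are asked of every library, or when either Top2β-null library is left out, because the filter on low counts then removes it. Leaving out each library gave 0 to 1 members called higher. With adjusted p as the only cut-off, 2 members were higher and 2 lower, and 19 and 14 of the other retinoid genes. Rarg went to -0.058 (edgeR, adjusted p = 0.0689) with scaling to the total count, and Aldh1a3 to -0.77 with DESeq2 (adjusted p = 0.136). Cyp26b1 turned to 0.044 with scaling to the total count, where the median of all genes moved from -0.0058 to 0.064. Leaving out each library gave -0.25 to 0.025 for Rarb (4.0e-05 without wt replicate 2 and 0.025 without Top2β-null replicate 2), -0.10 to 0.058 for Cyp26b1 (0.024 without wt replicate 2 and 0.058 without Top2β-null replicate 2), -0.99 to -0.54 for Aldh1a3 and -0.50 to -0.067 for Crabp2. The cause was not tested. The same fits gave 0.12 to 0.21 for Rara and -0.15 to -0.077 for Rarg, and -0.32 to -0.26 for the log2 ratio of Rarg to Rara, and -10.09 to -8.76 for that of Crabp2 to Crabp1. With the replicate number as a replicate block, 1386 genes were called higher and 1318 lower, against 1385 and 1317, Rara stood at 0.16 and Aldh1a3 at -0.78 (edgeR, adjusted p = 0.0454), and no call on a member changed. Same-numbered libraries deviated together only weakly (r = 0.0207 over 17952 features that are themselves not independent), so the numbers are not taken as pairs. The strict filter of 100 counts left 816 genes called higher and 924 lower. Where a genotype kept 1 library, it was assumed to vary like the other genotype. Counts under about 100 per library limit Rarb, Crabp2 and Aldh1a3.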
